A study of Mus musculus with 12 samples.

Results

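The genes described here are 10 calcium channel and T-tubule genes, Cacna1c, Cacna1g, Cacna1h, Cacnb2, Cacna2d1, Bin1, Jph1, Jph2, Cav3 and Dysf, out of 23337 genes in the deposited count tables. They were taken by symbol as subunits of the L-type and T-type calcium channels and as proteins that shape the T-tubule, a rule that uses no measured value. RNA was sequenced from mouse heart muscle cells (cardiomyocytes, CMs) in a design that removed serum response factor (Srf), a transcription factor that binds CArG boxes, from a mosaic of cells. KO samples were Srf-flox/flox and control (CTRL) samples were Srf-flox/+, so that CTRL cells kept 1 intact copy of Srf. Both genotypes carried a fluorescent protein reporter that Cre switches on, and both received AAV9-cTNT-Cre, a virus in which the cardiac troponin T promoter drives Cre in CMs. The virus was given at a low dose that reached a fraction of the CMs. It was injected at P1 with collection at P14, or at P60 with collection at P90, and cells with the reporter on were sorted after collagenase perfusion. Each of the 4 groups, P14 CTRL, P14 KO, P90 CTRL and P90 KO, held 3 samples, 12 in all. Libraries held 9740389 to 23103460 counts over genes, so that 3 counts corresponded to 0.130 to 0.308 CPM (counts on a gene relative to the total of its library). Sorted CMs are a bulk population, in which fewer cells of a type and less RNA per cell cannot be told apart.

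T-tubules are inward folds of the CM plasma membrane that bring the L-type calcium channel opposite the ryanodine receptors of the sarcoplasmic reticulum. The L-type channel has a pore subunit (alpha1, Cacna1c), an inner beta subunit that carries the pore to the membrane and sets its gating (Cacnb2), and an outer alpha2delta subunit (Cacna2d1). T-type channels open at more negative voltages, are abundant in the embryonic and newborn heart and in pacemaker cells, and give way to the L-type channel in the mature ventricle. T-tubules are built after birth by proteins that bend or tether the membrane: BIN1 folds it, junctophilins bridge it to the sarcoplasmic reticulum, caveolin 3 forms muscle caveolae, and dysferlin reseals it.

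The letters that lie before the start sites of the members that passed a test are shown because Srf acts through the CArG box. RefSeq windows (GRCm38.p6) were matched for 6 of the 10 members, Cacna1c, Cacnb2, Cacna2d1, Jph2, Cav3 and Dysf, with 11 start sites in all. Cacna1g, Cacna1h, Bin1 and Jph1 had no entry. The 250 bases before each start are given 5′ to 3′ on the strand of the gene, with copies of GGGCGG on either strand in capitals.
Cacna1c start site 1, chr6:119196410-119196659, minus strand: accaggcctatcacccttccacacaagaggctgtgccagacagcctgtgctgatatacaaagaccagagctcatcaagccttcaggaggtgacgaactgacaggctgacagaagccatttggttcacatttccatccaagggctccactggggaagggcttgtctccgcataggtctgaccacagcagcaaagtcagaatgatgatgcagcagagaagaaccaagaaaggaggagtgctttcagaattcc
Cacna1c start site 2, chr6:119108496-119108745, minus strand: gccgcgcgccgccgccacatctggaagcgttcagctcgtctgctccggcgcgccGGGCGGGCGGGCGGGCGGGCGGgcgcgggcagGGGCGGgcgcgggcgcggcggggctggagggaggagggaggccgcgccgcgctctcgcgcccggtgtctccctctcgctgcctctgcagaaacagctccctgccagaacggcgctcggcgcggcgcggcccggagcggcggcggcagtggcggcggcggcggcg
Cacna1c start site 3, chr6:118757975-118758224, minus strand: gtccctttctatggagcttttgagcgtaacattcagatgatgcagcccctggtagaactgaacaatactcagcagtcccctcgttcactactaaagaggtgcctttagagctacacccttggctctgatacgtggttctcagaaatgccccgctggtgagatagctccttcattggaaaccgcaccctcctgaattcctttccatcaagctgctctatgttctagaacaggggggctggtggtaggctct
Cav3 start site, chr6:112459255-112459504, plus strand: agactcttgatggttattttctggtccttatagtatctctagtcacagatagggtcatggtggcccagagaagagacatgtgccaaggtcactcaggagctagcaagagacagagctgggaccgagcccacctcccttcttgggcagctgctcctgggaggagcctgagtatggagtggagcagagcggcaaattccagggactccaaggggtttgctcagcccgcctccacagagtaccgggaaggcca
Among the 3 Cacna1c windows, that of start site 2 was 82.8% G and C and held 6 copies of GGGCGG, 5 of which overlapped one another by their ends, while the other two were 51.6% and 50.4% G and C and held none. Counts were made per gene and add up the transcripts from all start sites, so the data do not say which of them was used. A CArG box, the letters CC, then 6 of A or T, then GG, was in 0 of the 11 members' windows on either strand, and in 1.47% of 32851 promoter windows of the same length. TATAAA was also in 0 of the 11 windows, against 12.4% of all windows, and GGGCGG was in 6 of the 11, against 32.7%. The 2 Jph2 windows overlap and hold the same copy. The Srf window itself held 2 CArG boxes, CCATATAAGG beginning 82 bases before its start and CCATAAAAGG beginning 62 bases before it. These are matches of letters in short windows and say nothing about sites elsewhere in the genes. With a CArG box in so small a share of all windows, 0 of the 11 does not set the members apart.

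Srf values were lower in every KO sample than in every CTRL sample of the same stage. Srf stood at 64.3, 57.0 and 49.6 CPM in the P14 CTRL samples and at 32.1, 27.8 and 9.68 CPM in P14 KO. At P90 it was 71.8, 57.5 and 80.4 CPM in CTRL and 33.2, 29.1 and 27.9 CPM in KO. The log2 fold change was -1.30 ± 0.36 (SE) at P14, with an adjusted p of 0.0628 by edgeR's quasi-likelihood test, and -1.23 ± 0.13 at P90 (adjusted p = 0.00347). With the replicate number as a block, the P14 value was -1.44 with an adjusted p of 0.0220. No label says that these numbers pair the samples, and replicates 1 and 2 correlated as well when crossed. Srf passed the threshold of 0.05 at P14 in 6 of 15 alternatives, among them DESeq2 (adjusted p = 0.00224), the fit of all 12 samples (0.00999) and the fit without P14 KO replicate 3 (0.0474), the sample far below the other two. CM markers were abundant in every library, with 8 markers summing to 67464 to 101551 CPM, and this sum was lower in P14 KO (67464 to 73410 CPM) than in P14 CTRL (91637 to 101551 CPM). Much of the sum is Myh6, the main myosin heavy chain, which was lower in P14 KO (-0.65, adjusted p = 0.0466). Smooth muscle and pericyte markers, which include the known Srf target Acta2, summed to 958 to 1415 CPM in P14 CTRL and to 380 to 595 CPM in P14 KO. Of the 8 tested, Acta2 was lower (-1.87, adjusted p = 0.0128), at 183 to 382 CPM against 797 to 1330 CPM, and Cspg4, a pericyte gene, was higher (1.34, adjusted p = 0.0157). Erythroid markers summed to at most 2.41 CPM and immune cell markers to at most 13.4 CPM. The libraries of a group were described as biological replicates from separate hearts, and p-values measure the spread between them.

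At P14, 2 of the 10 members were up-regulated in KO and 0 were down-regulated, where 3.99% of the 12546 genes tested were called higher and 4.60% lower. Both were pore subunits, Cacna1c of the L-type channel and Cacna1g of the T-type channel. The median log2 fold change of the 10 members was 0.06, and that of all genes tested was 0.0011.

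**Figure D1:**
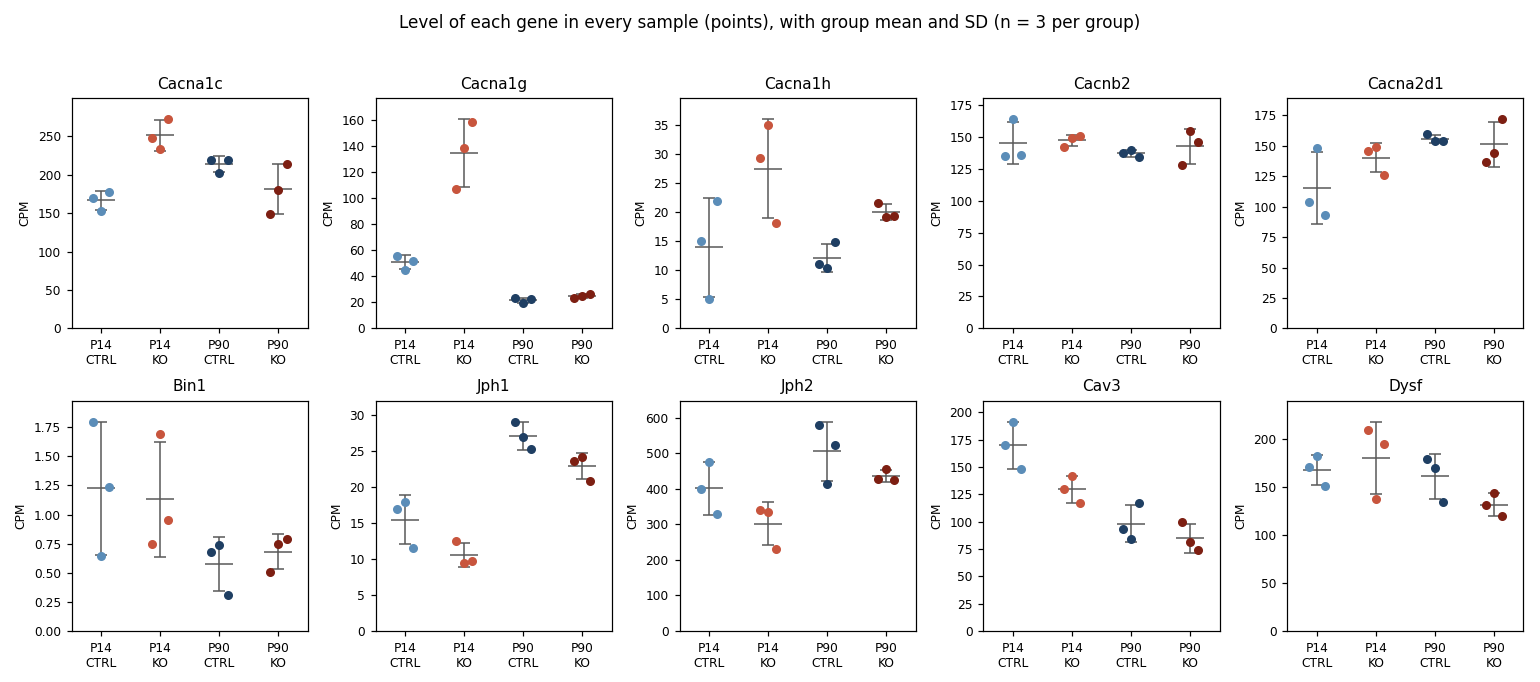
Level of each of the 10 genes in CPM (vertical axis, from 0) in every sample (points) of the 4 groups, with the group mean (dash) and SD (bars, n = 3). Cacna1g lies at 107 to 158 CPM in P14 KO and at 19.4 to 55.5 CPM in both CTRL groups.

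Cacna1c (chromosome 6, 118592296 to 119196409, minus strand, mm10), the pore of the L-type channel, was measured at 170.1, 153 and 177 CPM in the P14 CTRL samples and at 247, 234 and 273 CPM in the P14 KO samples. Every KO sample lay above every CTRL sample. The fold was 1.51 (log2 fold change 0.59 ± 0.11, adjusted p = 0.0209). Without any one of the P14 KO replicates 1, 2 or 3 the value was 0.54 to 0.66 and the adjusted p was 0.0651 to 0.0900, so the call needed all 3. At P90 Cacna1c stood at 219.7, 202 and 219.7 CPM in CTRL and at 149, 181 and 214 CPM in KO. The 2 groups overlapped, and the log2 fold change was -0.25 ± 0.13 with an adjusted p of 0.351. The KO effect itself differed between the stages. The P14 effect minus the P90 effect was 0.85 ± 0.18 on the log2 scale (adjusted p = 0.0361), in an interaction test where 0.818% of 12841 genes were called higher and 0.958% lower. This difference was 0.49 with an adjusted p of 0.0549 after an offset for gene length, and it missed the threshold without any one of 9 samples (adjusted p = 0.0563 to 0.0987).

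The accessory subunits were not called. Cacnb2 (chromosome 2, 14604306 to 14987908), the beta subunit, was the steadiest member, at 135, 164 and 136 CPM in P14 CTRL and 142, 149 and 150.3 CPM in P14 KO. Its log2 fold change was 0.02 ± 0.12 at P14 and 0.04 ± 0.10 at P90. An interval of 2 SE around the P14 value reached from -0.21 to 0.25, so a change of the size measured for Cacna1c lay outside it. Cacna2d1 (chromosome 5, 15934691 to 16374511), the alpha2delta subunit, was at 103, 149 and 93.4 CPM in P14 CTRL and at 145, 149 and 126 CPM in P14 KO, and the groups overlapped through CTRL replicate 2. Its log2 fold change was 0.28 ± 0.18 at P14 (adjusted p = 0.372), and without that replicate it was called. At P90 it was 159, 154 and 154 CPM in CTRL and 137, 144 and 172 CPM in KO, with a log2 fold change of -0.06 ± 0.11. Per kilobase of exon, the level of Cacnb2 relative to that of Cacna1c was 1.61, 2.18 and 1.56 in the P14 CTRL samples and 1.17, 1.30 and 1.12 in P14 KO. These ratios did not overlap at P14. At P90 they were 1.24 to 1.40 in CTRL and 1.39 to 1.74 in KO, which overlapped.

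Cacna1g (chromosome 11, 94408391 to 94474198, minus strand), a T-type pore subunit of the developing heart and of the conduction system, showed the largest change among the members. It was measured at 55.5, 44.9 and 51.6 CPM in P14 CTRL and at 107, 139 and 158 CPM in P14 KO. The lowest KO sample was above the highest CTRL sample. The highest KO value belonged to replicate 3, the sample with the least Srf, in which Cacna1h had its lowest KO value. A link with the level of Srf was not tested. The fold was 2.66 (log2 fold change 1.41 ± 0.16, adjusted p = 0.00548), and it passed the threshold in all 15 alternatives tried, each left-out sample included. At P90 it was 23.0, 19.4 and 22.7 CPM in CTRL and 23.4, 25.1 and 26.3 CPM in KO. The P90 groups stood apart by a narrow margin, and the log2 fold change was 0.18 ± 0.12 (adjusted p = 0.473). The P14 effect exceeded the P90 effect by 1.24 ± 0.20 on the log2 scale (adjusted p = 0.0210 for the interaction), a call that was lost without P90 CTRL replicate 3, P90 KO replicate 1 or P90 KO replicate 2 (adjusted p = 0.0577 to 0.0716). Markers of atrial and conduction cells, which also use T-type channels, moved in the same comparison. Of 7 such markers tested, 2 were higher in P14 KO, where 3.99% of all genes tested were called higher. They were Hcn4 (1.09 ± 0.21, adjusted p = 0.0209 by edgeR), a pacemaker channel, and Myl4 (1.67 ± 0.33, adjusted p = 0.0226), an atrial light chain. The study that reported these samples described both as genes of immature CMs that rose in neonatal KO. The summed level of the marker list ranged from 77.0 to 530.5 CPM in P14 CTRL and from 334 to 1229 CPM in P14 KO. Most of it was Nppa (52.7 to 500.2 CPM in P14 CTRL, 294 to 1171 CPM in P14 KO). The cells were taken from the apex of the digested heart before sorting. Sln, Bmp10 and Myl7 nonetheless reached 14.5, 8.03 and 24.1 CPM in P14 KO, against at most 0.648, 0.0499 and 1.42 CPM in P14 CTRL. Their lowest P14 KO values were 0, 0 and 0.0502 CPM. From 1 to 4 of the 10 markers were at 0 in each P14 library. Hcn4, Myl4 and Tbx3 were higher in every P14 KO sample than in every P14 CTRL sample, while Sln, Bmp10, Myl7 and Nppa overlapped. Tbx3 was not called, and its margin was narrow (13.5 to 15.8 CPM in P14 KO, 5.24 to 13.3 CPM in P14 CTRL). The part of atrial and conduction cells in the Cacna1g value was not tested.

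Cacna1h (chromosome 17, 25374287 to 25433783, minus strand), the other T-type pore subunit among the members, was scattered at P14. Its values were 15.0, 4.99 and 22.0 CPM in CTRL and 29.3, 34.9 and 18.2 CPM in KO. The groups overlapped, with CTRL replicate 2 far below the rest, and the log2 fold change of 0.98 ± 0.45 did not pass the test (adjusted p = 0.220). At P90 the values were tighter, at 11.1, 10.5 and 14.8 CPM in CTRL and 21.5, 19.2 and 19.4 CPM in KO. All 3 KO samples lay above all CTRL samples. The fold was 1.63 (log2 fold change 0.71 ± 0.15, adjusted p = 0.0718), short of the threshold, which it passed in 5 of 14 alternatives. Its exons share 156 bases with Tpsg1 on the other strand, a gene with at most 1 count in any library. The P14 effect minus the P90 effect was 0.28 ± 0.53 (adjusted p = 0.826), so the interval was too wide to place the effects apart or together.

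Summed per kilobase, the T-type pore genes Cacna1g and Cacna1h stood at 0.456, 0.359 and 0.457 of the Cacna1c level in the P14 CTRL samples. The ratio was 0.606, 0.818 and 0.713 in P14 KO, 0.171, 0.163 and 0.188 in P90 CTRL, and 0.331, 0.270 and 0.235 in P90 KO. None of the 4 groups overlapped another. At P14 the higher ratio in KO came with a higher denominator as well, because Cacna1c itself was up-regulated. At P90 the higher ratio came with Cacna1h above, Cacna1g narrowly above and Cacna1c partly below CTRL. None of these was called by edgeR's quasi-likelihood test with the filter on low counts and without block or length offset. Cacna1h was called in 5 of 14 alternatives, DESeq2 among them. Cacna1g exceeded Cacna1h by 2.35 to 9.01 times per kilobase in P14 CTRL, and by 1.09 to 1.36 times in P90 KO.

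**Figure D2:**
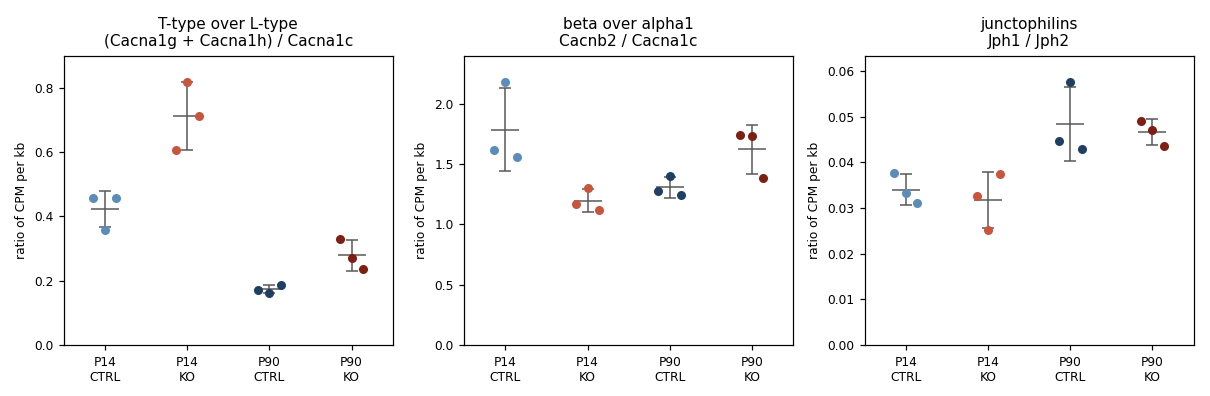
Ratios of levels per kilobase of exon within each sample (points; vertical axes from 0), with group mean and SD (n = 3): (Cacna1g + Cacna1h) over Cacna1c, Cacnb2 over Cacna1c, and Jph1 over Jph2. The (Cacna1g + Cacna1h) over Cacna1c ratio lies at 0.606 to 0.818 in P14 KO and at 0.163 to 0.188 in P90 CTRL.

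The T-tubule organisers had lower values or similar values in P14 KO, and none was called in the fit of the 6 P14 samples without the replicate block. Jph2 (chromosome 2, 163336242 to 163397993, minus strand), the main cardiac junctophilin, was at 399, 477 and 329 CPM in P14 CTRL and at 341, 334 and 232 CPM in P14 KO. KO replicate 3 was the lowest sample, and the other KO samples lay inside the CTRL range. The log2 fold change was -0.41 ± 0.19 (adjusted p = 0.207), and -0.47 with an adjusted p of 0.0367 with the replicate block together with the length offset. At P90 Jph2 stood at 579, 414 and 522 CPM in CTRL and at 427, 456 and 425 CPM in KO, a log2 fold change of -0.22 (adjusted p = 0.355). Jph1 (chromosome 1, 16994940 to 17097889, minus strand), the junctophilin best known from skeletal muscle, was at 17.0, 17.9 and 11.6 CPM in P14 CTRL and at 12.5, 9.52 and 9.78 CPM in P14 KO. The groups overlapped through CTRL replicate 3, and the log2 fold change was -0.55 ± 0.21 (adjusted p = 0.141), with an adjusted p of 0.0419 in a fit of all 12 samples. At P90 Jph1 was at 29.1, 27.0 and 25.3 CPM in CTRL and at 23.7, 24.3 and 20.9 CPM in KO, with every KO sample lower and a log2 fold change of -0.26 ± 0.11 (adjusted p = 0.292). Per kilobase, Jph1 was 0.0311 to 0.0376 of Jph2 in P14 CTRL and 0.0252 to 0.0373 in P14 KO, which overlapped.

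Cav3 (chromosome 6, 112459505 to 112472872), caveolin 3, was at 170.3, 191 and 148 CPM in P14 CTRL and at 130.2, 142 and 117 CPM in P14 KO. Every KO sample was below every CTRL sample. The log2 fold change was -0.39 ± 0.13 with an adjusted p of 0.0960, and -0.39 with an adjusted p of 0.0430 with the replicate block, while with the block and the length offset together the adjusted p was 0.0914. At P90 the values were 93.5, 84.1 and 117 CPM in CTRL and 99.4, 81.1 and 73.9 CPM in KO, with overlap and a log2 fold change of -0.23 (adjusted p = 0.451). Dysf (chromosome 6, 84008590 to 84211042), dysferlin, was at 170.3, 182 and 151 CPM in P14 CTRL and at 209, 137 and 194 CPM in P14 KO, a log2 fold change of 0.10 ± 0.17. The KO samples lay on both sides of the CTRL range. At P90 Dysf was at 179, 169 and 134 CPM in CTRL and at 132, 143 and 120.2 CPM in KO, and the log2 fold change was -0.30 (adjusted p = 0.244).

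Bin1, the membrane-bending protein, was close to the limit of detection. Between 4 and 38 counts fell on it in a library, which is 0.314 to 1.79 CPM. The P14 values were 1.79, 0.648 and 1.23 CPM in CTRL and 0.744, 1.69 and 0.953 CPM in KO, and the log2 fold change of -0.12 ± 0.47 left a change of 1.5-fold either way undetectable in these samples. At P90 the values were 0.676, 0.740 and 0.314 CPM in CTRL and 0.508, 0.745 and 0.788 CPM in KO.

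At P90, 0 of the 10 members were called by edgeR's quasi-likelihood test in either direction, where 0.237% of the 11808 genes tested were called higher and 0.152% lower. At an unadjusted p under 0.05 in that test there were 3 members, Cacna1h, Dysf and Jph1. DESeq2 called 1 member, Cacna1h, with a log2 fold change of 0.71 and an adjusted p of 0.00689. So did edgeR without the filter on low counts, with the replicate block, with the length offset and with the last 2 together. The median log2 fold change of the members was -0.14, and that of all genes was 0.0057. Of the 10, only Cacna1c and Cacna1g had a KO effect that differed between the stages in the interaction test.

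**Figure D3:**
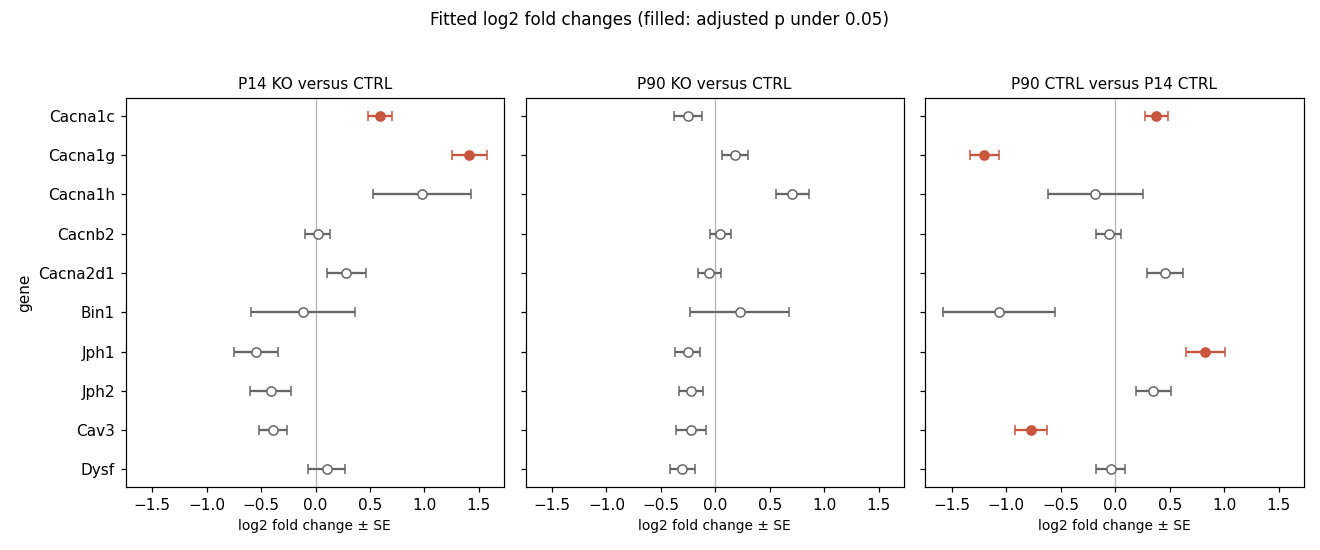
Fitted log2 fold changes (horizontal axis) of the 10 genes with SE bars for KO versus CTRL at P14, KO versus CTRL at P90, and P90 CTRL versus P14 CTRL. Filled points had an adjusted p under 0.05: Cacna1c and Cacna1g at P14, none at P90, and Cacna1c, Cacna1g, Jph1 and Cav3 between the CTRL ages.

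Between the CTRL ages, 4 of the 10 members differed. At P90, 2 were higher than at P14 and 2 were lower, where 14.5% of the 12294 genes tested were called higher and 14.9% lower. Age cannot be told apart here from the handling and sequencing of the 2 sets of libraries, and this comparison shares its P14 CTRL samples with the P14 KO comparison. Jph1 was 1.77-fold higher at P90 (log2 fold change 0.83 ± 0.18, adjusted p = 0.00868), with the lowest P90 CTRL sample at 25.3 CPM and the highest P14 CTRL sample at 17.9 CPM. Cacna1c was 1.30-fold higher (0.38 ± 0.11, adjusted p = 0.0284), and it missed the threshold without P14 CTRL replicate 1 or any one of the P90 CTRL replicates (adjusted p = 0.0592 to 0.0960). Cacna1g was lower, at 0.435 of its P14 level (-1.20 ± 0.13, adjusted p = 0.000438). Cav3 was lower, at 0.585 of its P14 level (-0.77 ± 0.15, adjusted p = 0.00568). Cacna2d1 (0.45 ± 0.16, adjusted p = 0.0670), Jph2 (0.35 ± 0.16, adjusted p = 0.137) and Bin1 (-1.07 ± 0.51, adjusted p = 0.148) did not pass in this fit, and Cacna2d1 passed in 5 of 15 alternatives, DESeq2 among them (adjusted p = 0.0441).

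Set side by side, the P14 KO and the age values of the called members went in different ways. Cacna1g was 1.41 higher in P14 KO and 1.20 lower with age on the log2 scale. Cacna1c was higher in both, by 0.59 and 0.38. Cav3 had negative values in both, -0.39 (not called) and -0.77. Jph1 had -0.55 (not called) in P14 KO and was 0.83 higher with age. Markers of other cells moved in the age comparison as well, in which 14.5% of the 12294 genes tested were called higher and 14.9% lower. Fibroblast and endothelial markers were lower in P90 CTRL than in P14 CTRL, with fibroblast markers summing to 52.5 to 71.4 CPM against 117 to 328 CPM, and 5 of 7 tested fibroblast markers and 6 of 8 endothelial markers lower. Endothelial markers summed to 192 to 246 CPM at P90 and to 220 to 468 CPM at P14. Of 7 atrial and conduction markers tested, 3 were higher at P90 and 0 lower, namely Sln (5.36), Myl7 (4.87) and Myl4 (2.41), and the summed level of the list was 213 to 345 CPM in P90 CTRL against 77.0 to 530.5 CPM in P14 CTRL. The part of these cells in the age values was not tested.

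In levels per kilobase of exon, Cav3 was first in P14 CTRL at 147 CPM per kilobase, followed by Jph2 at 94.3, Cacnb2 at 32.5, Dysf at 23.8 and Cacna1c at 18.4. These neighbours did not overlap, while Cacna1c and Cacna2d1 (15.4) did. Cacna1g (6.16), Jph1 (3.22), Cacna1h (1.70) and Bin1 (0.499) came last, and of these Jph1 overlapped Cacna1h and Cacna1h overlapped Bin1. In P14 KO the order of the first 3 was the same, and Cacna1c (27.8) came before Dysf (25.5), with overlap. Cacna1g reached 16.4 CPM per kilobase there and overlapped Cacna2d1 (18.7). In P90 CTRL Jph2 (119) stood before Cav3 (84.9), with overlap, and Jph1 (5.65) was above Cacna1g (2.64), without overlap. The P90 KO order was the same but for Cacna2d1 (20.2), Cacna1c (20.0) and Dysf (18.7), which came in this order, and neighbours among them overlapped.

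**Figure D4:**
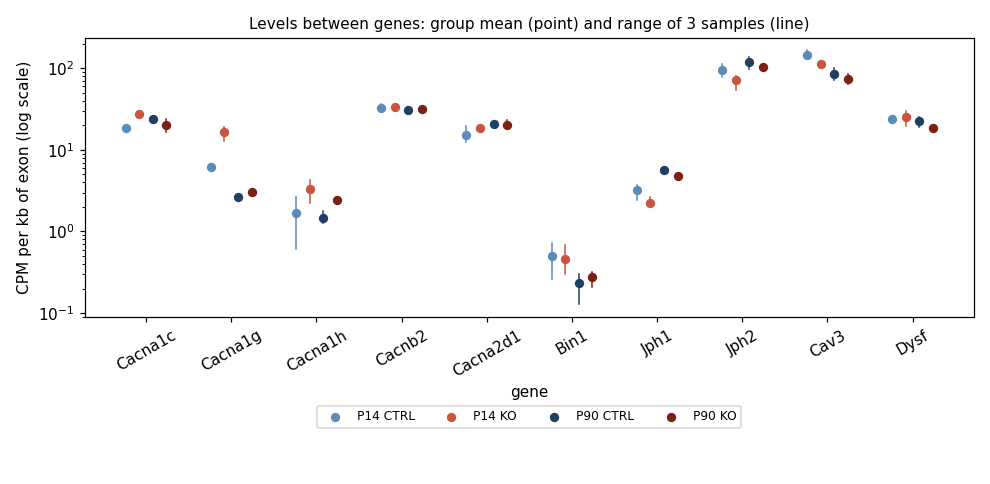
Levels between the 10 genes in CPM per kilobase of exon (vertical axis, log scale), as the mean (point) and the range (line) of the 3 samples of each group. Jph2 and Cav3 lie above the other genes in all 4 groups, and Bin1 is lowest, at 0.235 to 0.499 CPM per kilobase on average.

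Of 21 other voltage-gated calcium channel subunits, 8 passed the filter on low counts and were tested at P14. Of these, 1 was called lower, where 4.60% of all genes tested were. Cacna1s, the skeletal muscle L-type pore, was lower in P14 KO (-1.78 ± 0.43, adjusted p = 0.0407), at 0.552 to 1.88 CPM against 3.12 to 5.09 CPM in CTRL. It was higher in P90 than in P14 CTRL by 2.68 ± 0.20 on the log2 scale (adjusted p = 6.26e-05), at 24.6 to 27.4 CPM. Between the CTRL ages Cacna1a, a neuronal pore subunit, and Cacnb4, a beta subunit, were lower at P90, with log2 fold changes of -1.14 and -1.67. The median log2 fold change of those tested was -0.16 at P14 and -0.68 with age. At P90, 0 of 6 tested were called in KO by edgeR (1 at an unadjusted p under 0.05, 0 by DESeq2).

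Among 25 other genes of the T-tubule, the dyad and caveolae, 22 were tested at P14. Of these, 1 was called lower, a share near that of all genes tested (4.60%). Mtm1, myotubularin, a lipid phosphatase that works with BIN1 on T-tubules of skeletal muscle, was lower in P14 KO (-0.87 ± 0.22, adjusted p = 0.0450), at 19.2 to 26.3 CPM against 34.1 to 55.8 CPM. The median of the 22 was -0.15 in log2 fold change. At P90, 0 of 23 were called in KO by edgeR (5 at an unadjusted p under 0.05, 1 by DESeq2). In the interaction, 0 of 23 were called (4 at an unadjusted p under 0.05, 2 by DESeq2), and 0 of 9 of the other channel subunits (2 at an unadjusted p under 0.05, 1 by DESeq2). Between the CTRL ages, of 22 tested, 3 were higher, Tcap (0.61), Pacsin2 (0.76) and Murc (0.68), and 4 were lower, Cav1 (-0.95), Sdpr (-0.51), Prkcdbp (-0.96) and Ehd2 (-1.96), shares near those of all genes (14.5% and 14.9%). Tcap, telethonin, anchors the Z-disc to T-tubules, Pacsin2 bends membranes and Murc is the muscle cavin. Cav1 and Ehd2 are caveola genes.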

How the data were processed

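The authors deposited raw counts per gene, 1 table for each stage, with no normalization. According to the submitters' processing notes, reads were aligned to mm10 with STAR 2.5.3a and counted with featureCounts (Subread 1.5.2). Libraries were made from polyA RNA with SMART-Seq v4 and Nextera XT, which do not mark strand. How reads with several alignments were counted is not given in the sources used here. The 12 samples fell into 4 groups of 3 by their labels.

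Counts were tested with edgeR 4.0.16 (R 4.3.3): filterByExpr, TMM scaling, quasi-likelihood F-test, Benjamini-Hochberg adjustment over all genes tested, called at an adjusted p under 0.05. KO was compared with CTRL within each stage, P90 CTRL with P14 CTRL, and the stage by genotype interaction in all 12 samples. SE was the log2 fold change divided by the root of F. CPM used TMM library sizes over the 12 samples, and levels between genes were divided by the exon length in the tables. All 10 members passed the filter in every comparison. Scripts were tested on simulated data.

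Alternatives were DESeq2 1.42.0, other scalings, no filter, the replicate number as a block, an offset for gene length, a term for Y-linked counts, a fit of all 12 samples, and leaving out each sample. At P14, deviations of same-numbered samples correlated at 0.128, 0.122 and 0.444. Replicates 1 and 2 correlated as well when crossed (0.163 and 0.140), and the labels do not say what the numbers mark. These values therefore do not settle whether the numbers pair the samples. The block was used only as an alternative. Named genes were all members, Srf, and in each further list the genes past the threshold, up to 4 in each direction. Marker lists are given by counts and summed levels, with genes named where a result turns on them. The members and the lists (other channel subunits, L-type regulators, T-tubule genes, membrane repair genes and 7 sets of cell type markers) were chosen with earlier results of these data known, and the GGGCGG letters after the windows were seen. 1 gene of these lists is not reported here.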

Additional observations from a re-analysis of the deposited data

Results flagged for a closer look

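Among the 10 members, 2 had a KO effect that differed between the stages by the interaction test in edgeR's quasi-likelihood fit of all 12 samples. The P14 effect of Cacna1c minus its P90 effect was 0.85 ± 0.18 on the log2 scale (adjusted p = 0.0361), with all 3 P14 KO samples above P14 CTRL and overlapping groups at P90. The same difference was 1.24 ± 0.20 for Cacna1g (adjusted p = 0.0210), with all 3 KO samples above CTRL at both stages.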

How the results depend on the processing

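Cacna1g passed in every alternative tried at P14 (15) and between the CTRL ages (15), and in 16 of 19 for the interaction; Jph1 and Cav3 passed in all 15 between the CTRL ages. Cacna1c passed in 12 of 15 at P14, 8 of 19 for the interaction and 9 of 15 between ages, where upper-quartile scaling (adjusted p = 0.0564) and a term for Y-linked counts (0.0501) also ended its call. The cause was not tested. Genes called at P14 were 1078, against 1787 with DESeq2, 2088 in a fit of all 12 samples and 111 to 1004 without 1 sample, the lowest without P14 KO replicate 2. Members called at P14 were 1 to 3 without 1 sample. At P90, 46 genes were called, against 352 with DESeq2, 701 without a filter on low counts, 655 with the replicate block, 85 with the length offset, 205 with both, 3 in a fit of all 12 samples and 6 to 51 without 1 sample. Cacna1h was the 1 member called with DESeq2, without the filter, with the block, with the offset and with both; the range of its adjusted p over all alternatives was 0.0009 to 0.496. In the interaction, 228 genes were called (105 higher, 123 lower), against 911 with DESeq2 (308 higher, 603 lower), 474 without the filter, 687 with the block and 4 to 377 without 1 sample, and members were 1 with the length offset, 1 with block and offset, and 0 to 2 without 1 sample. Between ages, 3607 genes were called, and 2067 to 4768 genes and 3 to 7 members without 1 sample. Deviations of same-numbered samples correlated at 0.249, 0.0101 and 0.0687 at P90, and at -0.0744, -0.0715 and -0.0191 between ages. As at P14, not every sample correlated best with its own number, so pairing by these numbers was not shown. Of the members' calls the block changed those of Cav3 at P14 and Cacna1h at P90.

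Values near 0 changed sign. With the length offset, and with the block as well, log2 fold changes were -0.042 and -0.032 for Cacnb2 and -0.0040 and -0.0093 for Dysf at P14, 0.13 and 0.13 for Cacna2d1 at P90, 0.10 and 0.093 for Cav3 in the interaction, and 0.015 and 0.013 for Dysf between ages. Cacna1h was -0.038 in the interaction with the offset and 0.098 between ages with block and offset, and Cacnb2 was 0.0072 in the interaction with upper-quartile scaling. Without 1 sample the ranges were -0.035 to 0.13 for Cacnb2, -0.51 to 0.27 for Bin1 and -0.0093 to 0.28 for Dysf at P14; -0.0090 to 0.12 for Cacnb2, -0.17 to 0.012 for Cacna2d1 and -0.054 to 0.38 for Bin1 at P90; -0.12 to 0.77 for Cacna1h, -0.077 to 0.10 for Cacnb2, -0.74 to 0.055 for Bin1 and -0.37 to 0.29 for Srf in the interaction; and -0.60 to 0.30 for Cacna1h, -0.10 to 0.023 for Cacnb2 and -0.11 to 0.084 for Dysf between ages. None of these was called. Of 752 alternatives for single genes, levels and ratios, 661 kept their direction and side of the threshold or stayed within the spread. The Y-linked term was not run at P90 or for the interaction, since no P90 KO library held such counts. Bin1 had 4 to 38 counts a library.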

Other observations

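Membrane repair genes, the wider group of dysferlin, included called genes in P14 KO although Dysf itself was not called. Of 14 tested, 3 were higher in P14 KO and 0 lower, where 3.99% of all genes tested were higher and 4.60% lower. The 3 were annexins, proteins that bind membranes in the presence of calcium, and Anxa1 (0.081), Anxa6 (-0.090) and Anxa7 (0.23) were not called. Anxa2 was at 76.3 to 93.9 CPM in P14 KO and 32.0 to 49.2 CPM in P14 CTRL (log2 fold change 1.15 ± 0.17, adjusted p = 0.0116 by edgeR's quasi-likelihood test). Anxa5 was at 208 to 242 CPM against 112 to 140.1 CPM (0.86 ± 0.12, adjusted p = 0.00972), and Anxa4 rose by 0.81 ± 0.16 on the log2 scale (adjusted p = 0.0209). The KO effect on Anxa5 was larger at P14 than at P90 by 0.67 ± 0.15 (adjusted p = 0.0475). At P90, 0 of 14 were called in KO (2 at an unadjusted p under 0.05, 1 by DESeq2). The median log2 fold change of the 14 was 0.21 at P14 and 0.19 at P90, against 0.0011 and 0.0057 over all genes. Between the CTRL ages Anxa2 (-1.72), Anxa5 (-0.75) and S100a10 (-1.49), the partner of ANXA2, were lower at P90, and Trim72 (0.96), a muscle repair protein, was higher. Annexins are also made by fibroblasts and endothelial cells, whose summed markers overlapped between P14 KO and P14 CTRL (195 to 353 against 117 to 328 CPM, and 263 to 428 against 220 to 468 CPM). Their part in the annexin values was not tested.

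Of 14 regulators of the L-type channel, 12 were tested at P14. Of these, 1 was called lower, where 4.60% of all genes tested were. Akap7, an anchor that holds protein kinase A at the channel, was lower in P14 KO (-0.80 ± 0.18, adjusted p = 0.0342), at 16.5 to 18.2 CPM against 23.8 to 38.5 CPM, and no other was called by edgeR (2 of the 12 by DESeq2). Calm2, a calmodulin gene, had KO effects of opposite sign by edgeR, neither of them called. They were -0.46 at P14 (adjusted p = 0.0849) and 0.34 at P90 (adjusted p = 0.171). The P14 effect minus the P90 effect was -0.79 ± 0.18 (adjusted p = 0.0487 for the interaction). At P90, 0 of 11 were called in KO (5 at an unadjusted p under 0.05, 1 by DESeq2). Between the CTRL ages Gem, a small GTPase that holds back the L-type channel, was lower (-4.18 ± 0.47, adjusted p = 0.00046), at 0.364 to 1.48 CPM in P90 CTRL and 12.7 to 25.0 CPM in P14 CTRL, and Calm3 was lower as well (-1.23).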
